A study of Mus musculus with 7 samples.

Results

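Pyruvate dehydrogenase is the mitochondrial complex that turns pyruvate, the end product of glycolysis, into the acetyl-CoA that feeds the TCA cycle. Its E1 enzyme is built from Pdha1 (alpha subunit) and Pdhb (beta subunit), E2 is Dlat, E3 is Dld, and Pdhx is the protein that anchors E3 to the E2 core. The complex is switched off when pyruvate dehydrogenase kinases (the Pdk genes) phosphorylate the alpha subunit and switched on again when the phosphatases Pdp1 and Pdp2 remove the phosphate, while Pdpr is the regulatory subunit of the phosphatase. In muscle the kinases are known for shifting fuel use away from glucose, for instance in fasting.

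The 7 genes described here, Pdha1, Pdhb, Pdhx, Pdk1, Pdk2, Pdp1 and Pdp2, were taken from 13287 named genes because each had a probe set annotated to that gene alone in the deposited table. All 7 had a single probe set and all 7 were among the 9944 genes tested, so none was lost to the filter on dim probe sets. The deposited table had itself been filtered by the authors for probe sets that vary, and the SD over the 7 arrays ran from 0.102 for Pdhb, close to the lowest SD in the table (0.0914), to 0.724 for Pdp1, against a median of 0.200 for all genes tested. The genes were picked with earlier results of these arrays known. Dlat, Dld and Pdpr met the same annotation criterion and are given beside them, whereas Pdha2, Pdk3 and Pdk4 had no probe set of their own in the table and were not analysed here.

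Satellite cells, the stem cells of skeletal muscle, were sorted by FACS on GFP from TgPax7nGFP mice, a transgenic line in which Pax7 regulatory sequences drive a nuclear GFP, so cells were selected by reporter level and not by a surface marker. There were 2 arrays of cells from living mice of 24 to 26 months (old), 2 of cells isolated 2 days post mortem (D2PM) and 3 of cells isolated 4 days post mortem (D4PM). All mice carried the transgene and all cells are labelled quiescent. The mice left post mortem had been 8 to 12 weeks of age, so in every comparison with the old arrays death and age cannot be told apart. The array labels give the old mice in months, but the title of the array series calls the living mice young adults and its design text gives weeks; the labels were followed. Whether each array of a group stands for its own mouse is not given in the sources used here, and p-values measure only the spread between arrays.

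Values are log2 levels normalised by RMA on the GeneChip Mouse Gene 1.0 ST array, on which a gene is read by probes along its exons, so isoforms are not told apart and levels of different genes are not compared. Array medians lay between 6.11 and 6.19, and 46.8% of probe sets had an identical value on at least 2 arrays, which can bring the SD of a group to 0. Of 10 satellite cell markers 9 were in the table, and their mean level was 9.90 to 10.13 on every array. Single markers moved in both directions: of the 9, 2 were called higher and 1 lower post mortem, with differences from -0.73 to 0.55. Over all genes tested 14.4% were called higher and 14.7% lower. Pax7 was at 9.87 and 10.26 in old, 10.17 and 10.43 in D2PM and 10.30, 10.47 and 10.52 in D4PM cells, and did not pass the test in any comparison. Myofibre markers (17 of 20 in the table) averaged 6.97 and 7.26 on the old arrays and 7.88 to 8.22 on the post-mortem arrays, and 13 of 16 tested were higher post mortem. Endothelial markers averaged 5.77 and 6.40 on the old arrays against 6.71 to 7.27, with 10 of 17 higher. Fibroadipogenic progenitor markers (10 of 12 in the table) averaged 7.58 and 8.17 in old and 7.80 to 8.37 in post-mortem cells, and macrophage and monocyte markers (14 of 18) 5.04 and 5.56 against 5.001 to 5.20. The brightest markers of these 4 lists were Acta1 (1.88 higher post mortem on the log2 scale, adjusted p = 1.36e-05 from limma), Cdh5 (1.77 higher, adjusted p = 0.000823), Dpt (-0.19, adjusted p = 0.302) and Cd68 (-0.26, adjusted p = 0.260). Of 9 fibroadipogenic progenitor markers tested 7 had a difference above 0 (median 0.33), as did 4997 of the 9944 genes tested. Of these 9 markers 1 passed, Cd34 (0.67, adjusted p = 0.0376 from limma), and of 8 macrophage and monocyte markers 1 passed, Cd14 (-1.03, adjusted p = 0.00345). Both were named after their values were seen. Old replicate 2 had the lower mean of both old arrays for each of these 4 lists.

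Of the 7 genes 3 passed the test between post-mortem and old cells, as did 29.0% of all genes tested. These 3 were regulators of the complex and not subunits, but not every regulator passed. The kinase Pdk1 did not (0.32, adjusted p = 0.122 from limma), nor did Pdpr, outside the 7 (-0.40, adjusted p = 0.0781). Transcripts of the kinase Pdk2 and the phosphatase Pdp2 were higher on both days, while those of the phosphatase Pdp1 were lower on both days. The calls on Pdk2 and Pdp2 were lost without old replicate 2. Between D2PM and D4PM none of the 7 passed the test.

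**Figure D1:**
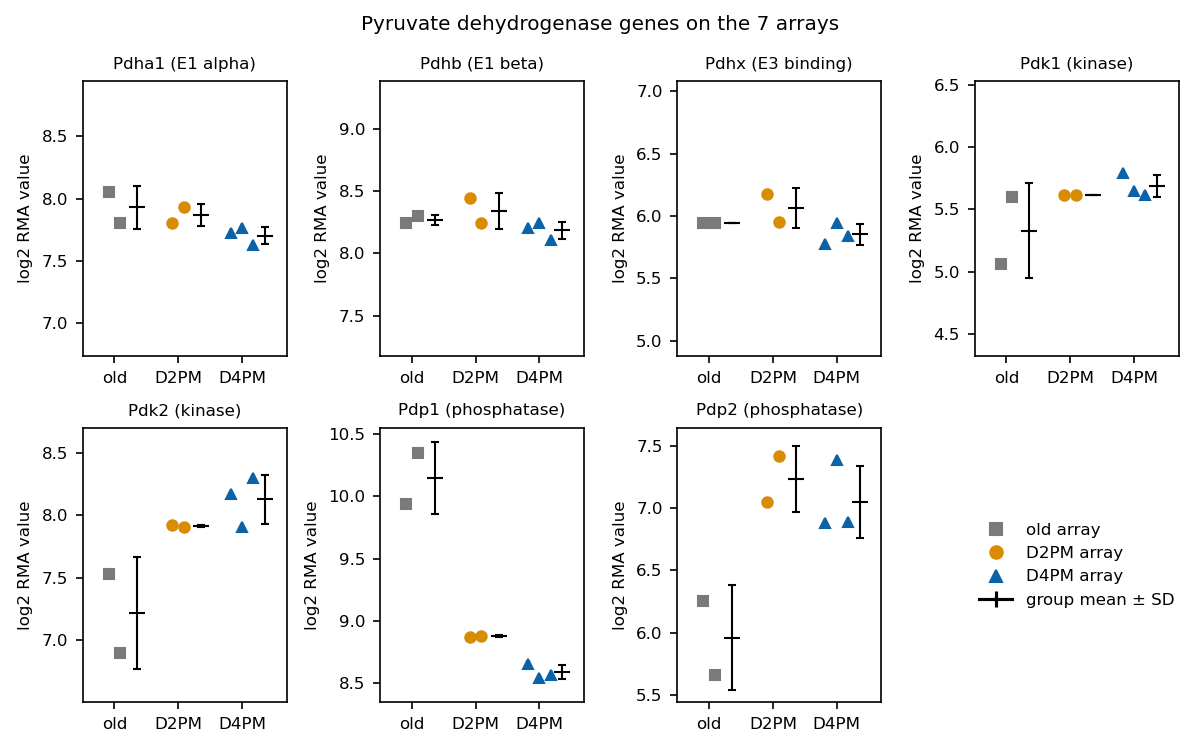
Log2 RMA values (y axis; each panel spans the same 2.2 log2 units) of the 7 genes on the 2 old (squares), 2 D2PM (circles) and 3 D4PM (triangles) arrays, with the group mean ± SD as a black bar. Pdp1 falls from 9.94 and 10.35 in old cells to below 9 on all post-mortem arrays, Pdk2 and Pdp2 lie higher post mortem, and the 3 subunit genes stay within a narrow band.

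The regulators Pdk2 and Pdp2 were picked because both were called higher post mortem, as were 14.4% of all genes tested. The sequences upstream of their transcription starts are shown. They are the 250 bases before the start in RefSeq (GRCm38.p6), each read 5′ to 3′ on the strand of its gene, chr11:95041372-95041621 (minus strand) for Pdk2, the first of its 2 windows, and chr8:104591222-104591471 (plus strand) for Pdp2. Capitals mark the E-box CACGTG.
Pdk2: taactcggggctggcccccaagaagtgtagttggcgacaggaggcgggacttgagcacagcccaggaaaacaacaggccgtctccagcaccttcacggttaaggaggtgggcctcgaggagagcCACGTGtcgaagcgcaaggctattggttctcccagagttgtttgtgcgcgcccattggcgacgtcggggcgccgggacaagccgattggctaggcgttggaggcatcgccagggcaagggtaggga
Pdp2: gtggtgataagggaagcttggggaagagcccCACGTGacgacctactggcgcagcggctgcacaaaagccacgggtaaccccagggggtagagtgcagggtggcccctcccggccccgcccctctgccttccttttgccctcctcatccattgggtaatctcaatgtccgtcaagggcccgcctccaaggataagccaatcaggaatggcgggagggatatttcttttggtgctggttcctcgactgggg
The search was made on both strands after the sequences had been seen, with CACGTG, with ACGTG (the core of the hypoxia response element, which lies in CACGTG on both strands, so that each E-box counts as 2 cores), with CCAAT and with the forkhead site TGTTTAC. The E-box begins 126 bases before the start of Pdk2 and 219 bases before that of Pdp2, and 6.02% of 32851 windows of this length hold one. CCAAT occurred 3 times in the Pdk2 window and 2 times in that of Pdp2, and 33.8% of windows hold it. Windows were given for 6 of the 7 genes, 8 in all, with Pdp1 not among them. The other 6 windows, the second window of Pdk2 among them, held no E-box. The core ACGTG occurred in 1 of them (Pdhb, 16.6% of all windows) and TGTTTAC in none of the 8 (3.17% of all windows). A match describes the letters and not a site in use.

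Pdp1 had the largest difference of the 7 genes at D4PM and for the mean of both days, and at D2PM Pdp2 differed from old cells by about as much in the other direction. Pdp1 encodes the calcium-stimulated phosphatase that reactivates the complex. Its log2 level was 9.94 and 10.35 in old cells, 8.87 and 8.88 at D2PM and 8.66, 8.55 and 8.57 at D4PM. No old array overlapped a post-mortem array, the lowest old value being above the highest post-mortem value. Relative to old cells the log2 level fell by 1.27 at D2PM (standard error 0.16, 95% confidence interval -1.61 to -0.93, adjusted p = 0.000540 from limma), a level 2.40-fold lower. At D4PM it fell by 1.55 (standard error 0.14, -1.86 to -1.24, adjusted p = 3.92e-05), a level 2.94-fold lower. In bulk RNA, fewer transcripts per cell and fewer cells that carry them cannot be told apart. All D4PM arrays lay below both D2PM arrays, but the difference between the days, -0.29 (-0.60 to 0.02), did not pass the test (adjusted p = 0.645). The order of the levels was old, D2PM, D4PM. The SD within a day (0.0060 at D2PM and 0.059 at D4PM) rests on 2 and 3 arrays and is no firm measure of spread. In limma the standard error of the step between the days was 0.14.

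Pdp2, the other catalytic phosphatase, went the opposite way. It was at 6.26 and 5.66 in old cells, 7.05 and 7.42 at D2PM and 6.88, 7.38 and 6.89 at D4PM. All 5 post-mortem arrays lay above both old arrays, and the D2PM and D4PM arrays were interleaved. The log2 level rose by 1.27 at D2PM (standard error 0.23, 0.77 to 1.77, adjusted p = 0.00409 from limma), or 2.41-fold. At D4PM the rise was 1.09 (standard error 0.21, 0.63 to 1.55, adjusted p = 0.00314), or 2.13-fold. Between the days the difference was -0.18 (-0.64 to 0.28, adjusted p = 0.790).

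Pdk2, a widely expressed kinase of the complex, was at 7.53 and 6.90 in old cells, at 7.92 and 7.91 in D2PM cells and at 8.17, 7.91 and 8.30 in D4PM cells. All post-mortem arrays were above both old arrays, and 1 D4PM array shared the value of a D2PM array. The rise was 0.70 at D2PM (standard error 0.20, 0.26 to 1.14, adjusted p = 0.0327 from limma) and 0.91 at D4PM (standard error 0.18, 0.51 to 1.32, adjusted p = 0.00425), which correspond to 1.62-fold and 1.88-fold. The days differed by 0.21 (-0.19 to 0.62, adjusted p = 0.734).

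Pdk1, the kinase known as a target of hypoxia-inducible factor, lay close to the filter value of 5.12. Its level was 5.06 and 5.60 in old cells, 5.62 on both D2PM arrays and 5.79, 5.65 and 5.62 in D4PM cells. All post-mortem arrays were above the old arrays, although old replicate 2 was only just below them. The differences from old cells were 0.29 at D2PM (-0.09 to 0.67, adjusted p = 0.279) and 0.36 at D4PM (0.01 to 0.71, adjusted p = 0.117), and neither passed the test over all genes in limma.

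The calls on Pdk2 and Pdp2 depended on old replicate 2, the lower of both old arrays for these genes. Without it, the difference of the mean of both days from old cells went from 0.80 (adjusted p = 0.00492) to 0.49 (adjusted p = 0.113 from limma) for Pdk2 and from 1.18 (adjusted p = 0.00123) to 0.88 (adjusted p = 0.0603) for Pdp2. For Pdp1 it went from -1.41 (adjusted p = 4.00e-05) to -1.21 and the call held (adjusted p = 0.00497). Pdk1, whose old replicate 1 was its lower one, passed the test when old replicate 2 was left out, with a difference of 0.59 in place of 0.32 (adjusted p = 0.0395 in place of 0.122). At D2PM alone the call on Pdk2 was also lost without either D2PM array (adjusted p = 0.191 without replicate 1 and 0.161 without replicate 2), and that on Pdp2 without D2PM replicate 2 (adjusted p = 0.0720).

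The subunit genes varied little. Pdha1, the subunit that the kinases phosphorylate, was at 8.05 and 7.81 in old cells, 7.81 and 7.93 in D2PM cells and 7.72, 7.76 and 7.63 in D4PM cells. The D4PM arrays were the 3 lowest, but the difference from old cells was -0.23 (-0.51 to 0.06, adjusted p = 0.217 from limma) and that from D2PM cells -0.17 (-0.45 to 0.12, adjusted p = 0.722). Pdhb, its partner in E1, was at 8.24 and 8.30, at 8.44 and 8.24, and at 8.21, 8.24 and 8.11 in the same order of groups. These arrays overlapped in every comparison, and the largest of the 3 differences between groups was -0.16 (D4PM against D2PM, -0.43 to 0.12, adjusted p = 0.725). Pdhx was at 5.94 on both old arrays, at 6.18 and 5.95 in D2PM cells and at 5.78, 5.94 and 5.84 in D4PM cells, with differences from old cells of 0.12 (-0.18 to 0.43) and -0.09 (-0.37 to 0.19). The intervals of these 3 genes reached from -0.51 to 0.43 against old cells, so a change of the size measured for Pdp1 or Pdp2 lies outside them, while smaller changes were not resolved with this number of arrays.

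**Figure D2:**
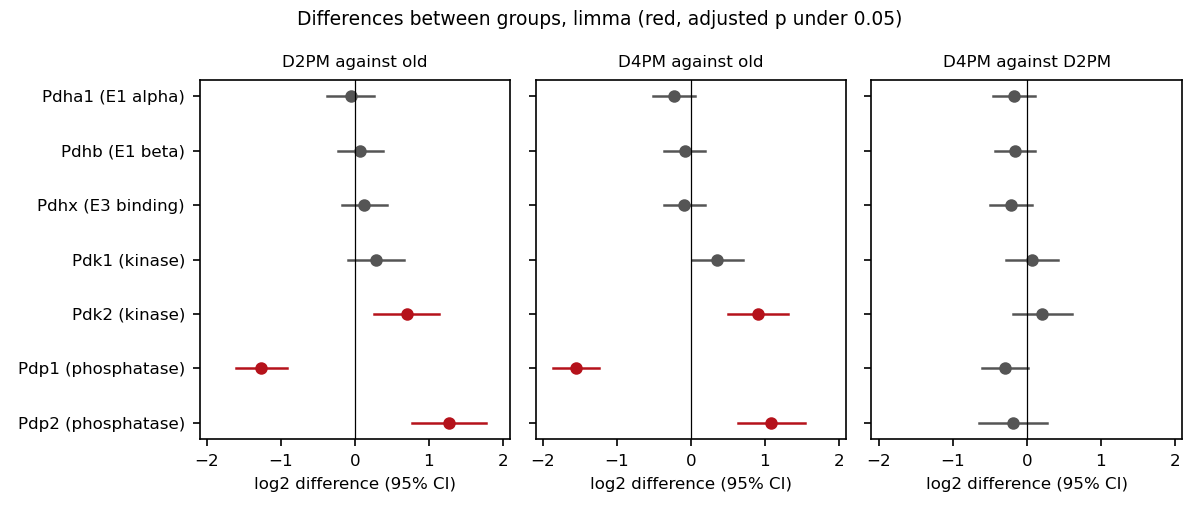
Log2 difference (x axis) of the 7 genes for D2PM against old, D4PM against old and D4PM against D2PM, with the 95% confidence interval from limma as a line, red where the adjusted p is under 0.05. Pdk2, Pdp1 and Pdp2 are red in both comparisons with old cells (Pdp1 at -1.27 and -1.55), and no gene is red between the days.

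Counted together, 3 of the 7 genes passed the test at D2PM against old cells (2 higher, 1 lower), where 19.4% of all genes tested did (10.3% higher, 9.11% lower). The same 3 passed at D4PM, where 27.9% of all genes did (12.4% higher, 15.5% lower), and in the mean of both days against old (29.0% of all genes). With 7 genes, a count of 3 is not far above these shares. Between D4PM and D2PM 0 of the 7 passed in limma, as against 0.191% of all genes (0.161% higher, 0.0302% lower), and 0 of the 7 had an unadjusted p under 0.05 there; by the methods' t-test 1 of the 7, Pdp1, did before adjustment and 0 after it. The arrays did not overlap for 5 of the 7 at D2PM against old (62.2% of all genes), 5 at D4PM against old (54.5%), 4 at D4PM against D2PM (25.3%) and 4 for all post-mortem against old arrays (46.0%). Both comparisons with old cells share the same 2 old arrays. The median difference of the 7 genes was 0.02 for post-mortem against old cells and 0.00 over all genes.

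The means of myofibre and endothelial markers were higher on all 5 post-mortem arrays than on both old arrays, as were Pdk2 and Pdp2, whereas Pdp1 was lower. In old replicate 2 the means of both lists were lower than in old replicate 1, as were Pdk2 and Pdp2, whereas Pdp1 was higher. Without that array the count of myofibre markers past the threshold went from 13 to 8 and that of endothelial markers from 10 to 1. The part of these markers in the differences was not tested. The mean of satellite cell markers, in contrast, was 10.05 and 9.996 on the old and 9.90 to 10.13 on the post-mortem arrays. Of the 9 markers in that mean, 2 were called higher and 1 lower post mortem.

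**Figure D3:**
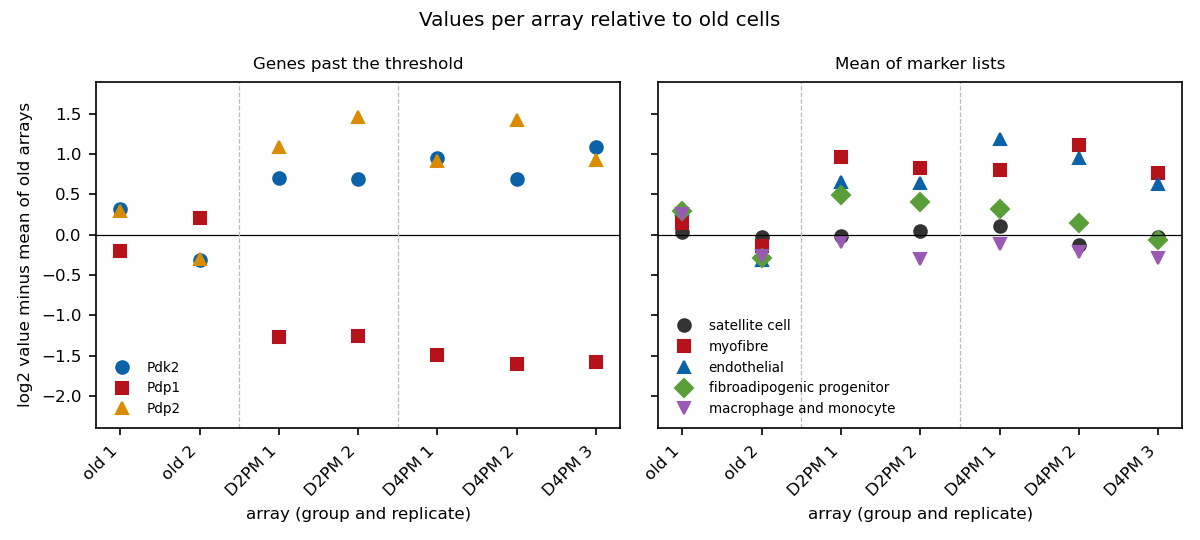
Log2 value minus the mean of the 2 old arrays (y axis) on each of the 7 arrays (x axis), for Pdk2, Pdp1 and Pdp2 on the left and for the mean of 5 lists of cell type markers on the right. Means of myofibre and endothelial markers lie above 0 on the 5 post-mortem arrays, as do Pdk2 and Pdp2. Pdp1 lies below 0 there, and the mean of satellite cell markers stays near 0.

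Of the remaining genes of the complex Pdpr varied more than the subunits above. Dlat, the E2 enzyme, was at 6.81 and 6.95 in old, 6.93 and 6.66 in D2PM and 6.81, 6.67 and 6.73 in D4PM cells, and its arrays overlapped in all comparisons. Dld, the E3 enzyme shared with other 2-oxo acid dehydrogenases, was at 8.53 and 8.70, at 8.62 and 8.55 and at 8.30, 8.47 and 8.11, lowest at D4PM, with a difference from old cells of -0.32 (-0.62 to -0.01, adjusted p = 0.114 from limma). Pdpr was at 5.60 and 6.25 in old, 5.36 and 5.48 in D2PM and 5.65, 5.56 and 5.65 in D4PM cells. Its difference from old was -0.50 at D2PM (-0.92 to -0.09, adjusted p = 0.0854) and -0.30 at D4PM (adjusted p = 0.211). None of these 3 genes passed the test in any comparison in limma as reported. Pdpr, whose old replicate 2 was its higher one, did pass without old replicate 1 (-0.83 at D2PM, adjusted p = 0.0161, and -0.63 at D4PM, adjusted p = 0.0201), and for the mean of both days also with median centring (-0.46, adjusted p = 0.0474).

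Genes that supply pyruvate or take it elsewhere were next to the complex. Of 17 listed 10 were tested, and 1 was higher and 2 were lower post mortem (14.4% of all genes were higher and 14.7% lower). Ldha, the lactate dehydrogenase subunit that favours lactate formation, fell from 8.964 and 9.002 in old cells to 8.25 and 7.86 in D2PM and 8.002, 7.90 and 7.76 in D4PM cells, a difference of -1.01 for the mean of both days (standard error 0.14, adjusted p = 0.000393 from limma). Ldhb, the subunit that favours the return of lactate to pyruvate, rose by 0.44 (adjusted p = 0.0243), and Slc16a3, a lactate exporter, fell by 0.64 (adjusted p = 0.00465). Mpc1, of the carrier that brings pyruvate into mitochondria, had a difference of 0.26 (adjusted p = 0.163). Without old replicate 2 the count of 3 went to 1.

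The E2 subunit works through lipoate, a cofactor built on the protein with sulphur from iron-sulphur clusters. Of 16 listed genes of lipoate attachment and of the steps that supply it, iron-sulphur clusters included, 10 were tested. Of these 4 were higher post mortem and none was lower, with a median difference of 0.23. Over all genes tested 14.4% were higher and 14.7% lower. Lias, the lipoate synthase, was at 6.38 ± 0.12 (SD, n = 2) in old, 7.10 ± 0.02 (SD, n = 2) in D2PM and 7.06 ± 0.14 (SD, n = 3) in D4PM cells, a difference of 0.70 (standard error 0.12, adjusted p = 0.00168 from limma). Nfu1, Bola3 and Glrx5, which make or carry iron-sulphur clusters, rose by 0.62, 0.39 and 0.37 (adjusted p = 0.00666, 0.0360 and 0.0410). Lipt2, also on the list, was at 0.24 and did not pass (adjusted p = 0.135 from limma). The count of 4 went to 1 without old replicate 1 and to 2 without old replicate 2, without D2PM replicate 1 or with median centring of the arrays. Of the genes for the thiamine and coenzyme A cofactors 6 of 12 were tested and 1 was lower, Pank4, a pantothenate kinase family member, at -0.45 (adjusted p = 0.0199 from limma), while Pank2 was at -0.29, the thiamine transporter Slc19a2 at 0.31 and Ppcdc at 0.09. The call on Pank4 was the only one of its list and no gene of the list passed without either old array or either D2PM array.

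**Figure D4:**
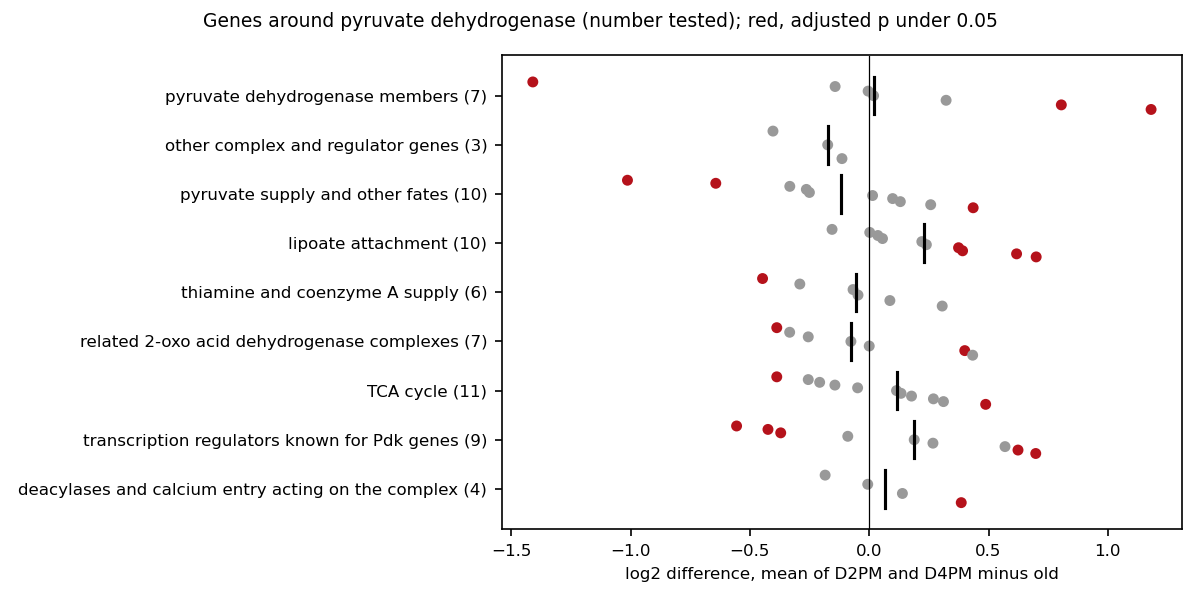
Log2 difference (x axis; mean of D2PM and D4PM minus old) of each gene tested in the 7 genes described and 8 lists around them, each gene a point, in red if it passed the test (adjusted p under 0.05), with the median of the list as a black bar. Pdp1 (-1.41) and Pdp2 (1.18) have the widest differences shown, and the medians lie between -0.17 and 0.23.

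The sister complexes use the same chemistry on other 2-oxo acids. Of their 7 genes tested of 9 listed, Bckdk, the kinase of the branched-chain complex, was higher (0.40, adjusted p = 0.0366 from limma) and Dlst, the E2 enzyme of 2-oxoglutarate dehydrogenase, was lower (-0.39, adjusted p = 0.0404). Over all genes tested 29.0% were called in this comparison (14.4% higher, 14.7% lower), to be set beside each count here. Ppm1k, the phosphatase of the branched-chain complex, was at 0.43 (adjusted p = 0.0712) and Ogdh at -0.26 (adjusted p = 0.0962). Of 11 TCA cycle genes tested (17 listed), Sdhd was higher (0.49, adjusted p = 0.0125), Dlst was lower, and the median was 0.11, with Idh2 at 0.31 (adjusted p = 0.0587). From D2PM to D4PM all 11 had a difference below 0 (median -0.22), but 0 of them passed the test in limma. Over all genes 5625 of 9944 were below 0 there (median -0.03), and genes read on the same arrays are not independent. Of 4 deacylases and calcium uniporter genes tested Micu2, a gatekeeper of mitochondrial calcium entry, was higher (0.39, adjusted p = 0.0414), and Sirt3, Sirt4 and Sirt5 were at -0.01, -0.18 and 0.14. The counts of the sister complexes and of the TCA cycle, 2 each, and that of the deacylase and calcium genes, 1, all went to 0 without old replicate 2. The TCA cycle count was also 0 without D2PM replicate 1, that of the sister complexes without D2PM replicate 2 or D4PM replicate 3 and with the replicate number as a block, and that of the deacylase and calcium genes without old replicate 1, either D2PM array or D4PM replicate 1, and also with second quantile normalisation, median centring, the 50th percentile filter, array weights or the methods' t-test.

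Transcription factors known to act on Pdk genes passed the test in both directions. Of 9 tested of 11 listed, 2 were higher and 3 lower post mortem (14.4% and 14.7% of all genes tested). Foxo1, which induces kinase genes in fasting, rose from 7.69 ± 0.14 (SD, n = 2) in old to 8.37 ± 0.16 (SD, n = 2) in D2PM and 8.41 ± 0.24 (SD, n = 3) in D4PM cells (0.70, adjusted p = 0.00479 from limma). The coactivator Ppargc1a rose by 0.62 (adjusted p = 0.00172). Myc fell by 0.56 (adjusted p = 0.00524) and Ppard by 0.42 (adjusted p = 0.0269), and Hif1a, the lowest-ranked of these 5, fell by 0.37 (adjusted p = 0.0479). Epas1, on the same list but not among these 5, went the other way. It differed from old cells by 0.46 at D2PM (adjusted p = 0.243 from limma) and by 0.68 at D4PM, just past the threshold (adjusted p = 0.0499). The count of 5 went to 1 without old replicate 2 and to 3 without old replicate 1 or either D2PM array.

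The profile of each gene over the 7 arrays was set against all other genes tested, as a description, since the 7 arrays fall into old and post-mortem ones and many genes share that step. Pdp1 was most like Nat10, Lrrc58 and Utp18 (Pearson's r = 0.998, 0.997 and 0.997), and 1011 genes had an r above 0.9 with it. Nat10 and Utp18 act in ribosome biogenesis. Pdk2 was most like the early response genes Fos, Dusp1 and Btg2 (r = 0.994, 0.993 and 0.991; 360 genes above 0.9). Pdp2 was most like Pcyox1 (r = 0.999), Hadh, an enzyme of fatty acid oxidation (r = 0.987), and Snai1 (r = 0.986; 352 genes above 0.9). Among the 7 genes themselves Pdp1 ran opposite to Pdk2 (r = -0.93) and to Pdp2 (r = -0.90), and Pdhb ran with Pdhx (r = 0.89), whereas Pdk1 and Pdk2 had an r of 0.37.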

How the data were processed

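The deposited values are on the log2 scale: the authors ran RMA (background correction, normalisation between arrays, summary per probe set) and dropped probe sets not expressed or invariant, with thresholds not given in the sources used here. Per the submitters' processing notes limma was used too. Dropping invariant probe sets raises the share of genes called. Of 18675 probe sets the array annotation ties 14480 to 1 gene and 774 to several and lists no gene for 3421; 14425 matched RefSeq (GRCm38.p6) by Entrez identifier. The brightest probe set stood for a gene, and Ldhb, Nfu1 and Ppargc1a, for instance, had 2 probe sets each. The 9944 genes with a mean of at least 5.12 (25th percentile) entered limma 3.58.1 (R 4.3.3), with 3 group means in 1 fit, 4 residual degrees of freedom and p adjusted over all genes by Benjamini-Hochberg (threshold 0.05). Post-mortem against old is the mean of both days minus old. The fit was tested on simulated data.

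The 7 genes, the lists and the comparisons were chosen with earlier results of these data known, so counts and medians are given in place of tests of lists. Named are all genes of the complex, up to 4 genes per metabolic list by moderated statistic, the 3 most alike genes for 3 of the 7, Pax7 and the brightest marker of each other cell type. Hif1a, Epas1, Lipt2, Cd34 and Cd14 were named after their values were seen. Alternatives were second quantile normalisation, median centring, no filter or a 50th percentile filter, the mean of probe sets, a trended robust variance prior, array weights, a block on replicate number, each array left out, post-mortem arrays alone and the methods' t-test. The last is the plain t-test of the study's general statistics and not its array method. For both days against old it pooled the 5 post-mortem arrays in place of taking the mean of the day means. Arrays carry no counts, and their number limits the precision.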

Additional observations from a re-analysis of the deposited data

How the results depend on the processing

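When 1 array was left out, the 3 members past the threshold became 1 to 3 at D2PM against old (1 without old replicate 2 or D2PM replicate 2), 2 to 3 at D4PM against old and for both days against old, and 0 to 0 between the days. Without old replicate 2 the 2 members called at D4PM and for both days were Pdp1 and Pdk1, so that of the 3 reported only Pdp1 remained. The methods' t-test, which is not the study's array method, called 0 at D2PM, 0 at D4PM and 2 for both days against old after Benjamini-Hochberg. Unadjusted, it called 1, 3 and 3, and 1 between the days. No other setting moved these counts. Genes called over the whole table ran from 15 to 2227 at D2PM (1931 as reported), 14 to 2903 at D4PM (2770), 858 to 2930 for both days (2887) and 0 to 54 between the days (19), the lowest at D2PM and D4PM being from the methods' t-test. Same-numbered arrays did not deviate together (r from -0.08 to 0.05 over 6 pairs), so the numbers were not taken as pairs. The 6 values are not independent, since in a group of 2 arrays both deviations are mirror images. A block on replicate number called 3 members at D2PM, 3 at D4PM, 3 for both days and 0 between the days. It changed the call of no member and gave the 54 genes between the days. Replicate 3 exists only at D4PM, so with the block that array adds nothing to the differences between groups. For Pdhb, both days against old, the block gave the same 0.014 as leaving D4PM replicate 3 out. Signs turned only in values that did not pass the test either way. With second quantile normalisation Pdhb was 0.0096 at D4PM and 0.053 for both days, and Pdhx -0.037 for both days. Median centring gave Pdhx -0.034 and the replicate block gave Pdhb 0.014 for both days. With 1 array left out Pdha1 ran from -0.18 to 0.061 and Pdhb from -0.028 to 0.18 at D2PM, Pdhb from -0.056 to 0.047 and Pdhx from -0.038 to 0.075 for both days, and Pdp2 from -0.37 to 0.0058 between the days. The cause was not tested. RMA gives no detection call, so whether Pdk1, near the filter value, or Ppargc1a on the old arrays was above background is not known.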
